A study of Mus musculus with 12 samples.

Results

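The pyruvate dehydrogenase genes were followed in RNA-seq libraries of liver tumours from Pck1-null and wild-type mice. The symbols of 10 genes were looked up in the table of read counts: the kinase genes Pdk1, Pdk2, Pdk3 and Pdk4, the phosphatase genes Pdp1 and Pdp2, the subunit genes Pdha1, Pdhb and Dlat, and the pyruvate carrier gene Mpc1. All 10 were found among its 46095 rows, and all 10 passed the filter on low counts that left 14666 genes for testing. The KO group held 7 libraries labelled Pck1-null and the WT group held 5 libraries labelled WT, and both groups were hepatocellular carcinomas (HCC) induced by diethylnitrosamine (DEN), a liver carcinogen. The design asked what loss of Pck1, the cytosolic enzyme that turns oxaloacetate into phosphoenolpyruvate, does to the transcriptome of these tumours. The labels give no allele, Cre driver, strain, age, sex, DEN dose or feeding state, and nothing in them says whether each library is a different animal. The p-values therefore reflect the spread among these libraries, which may be partly technical. No non-tumour liver is among the libraries.

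The pyruvate dehydrogenase complex sits in the mitochondrial matrix and converts pyruvate to acetyl-CoA, which links glycolysis to the citric acid cycle and to fat synthesis. Its E1 component is built from the products of Pdha1 and Pdhb, and Dlat encodes the E2 acetyltransferase. The kinases phosphorylate the Pdha1 product and switch the complex off, and the phosphatases remove the phosphate and switch it back on. In liver, Pdk2 is the common kinase gene, Pdk4 is known to be induced in fasting, and Pdk1 is a known target of hypoxia-inducible factor. Mpc1 forms, with Mpc2, the carrier that brings pyruvate into the mitochondrion.

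Levels are given as CPM, a gene's count scaled to the size of its library, with library sizes adjusted by the trimmed mean of M-values (TMM). Library totals ran from 17462102 to 46747125 counts and fell into a deeper class (KO replicates 4, 5 and 6 and WT replicates 2 and 5) and a shallower class. Pck1 itself was at 111 to 1167 CPM in KO libraries, with a median of 219, and at 1063 to 5822 CPM in WT libraries, with a median of 5598. The library labelled KO replicate 3 lay above the lowest WT library for Pck1. The difference was -3.28 ± 0.67 on the log2 scale (SE, adjusted p = 0.170, edgeR). Xist RNA, which coats the inactive X in female cells, was above 10 CPM in 5 of 7 KO and 1 of 5 WT libraries. Counts of Y-linked genes summed to 0 to 5 in those libraries and to 1463 to 5901 in the others. By these genes the libraries split by sex, and more KO than WT libraries are female. Genotype is thus partly mixed with sex for every gene, and Pdk3 and Pdha1 lie on the X chromosome. Summed markers of hepatocytes were at 88246 to 219335 CPM in KO libraries and 83746 to 276069 CPM in WT libraries. Neutrophil markers summed to 246 to 1614 CPM in KO replicates 3, 4 and 6, and to 22.5 to 48.2 CPM over all WT libraries. Bile duct markers summed to 4313 CPM in KO replicate 5, and no WT library was over 973 CPM. Endothelial markers summed to 150 to 297 CPM in 6 of 7 KO libraries and to 574 CPM in KO replicate 6. WT libraries had 359 to 540 CPM. Of these 8 markers, 3 were lower in KO libraries at an unadjusted p under 0.05 (edgeR), against 7.44% of all tested genes. Kupffer cell and macrophage markers summed to 151 to 346 CPM in 6 of 7 KO libraries and KO replicate 6 had 1881 CPM, while WT libraries had 380 to 1132 CPM. In bulk tissue, fewer cells of a type and less RNA per cell cannot be told apart.

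One gene needed its sequence before its values. Mpc1 (GRCm38, chr17:8282904-8297661, plus strand) has a processed pseudogene, Mpc1-ps, on another chromosome, and both have rows of their own in the table. The coding sequences of Mpc1 (chr17:8283891-8297162, plus strand, exons joined) and its copy (chr12:110858565-110858894, minus strand) are 330 bases long and are identical at 329 of them. Their first 90 bases, from the start codon, are shown 5′ to 3′ from the GENCODE transcripts, because a read from one can align to the other. The capital marks the single differing base.
Mpc1 coding: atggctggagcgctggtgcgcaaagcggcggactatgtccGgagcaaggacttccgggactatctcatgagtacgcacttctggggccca
Mpc1-ps: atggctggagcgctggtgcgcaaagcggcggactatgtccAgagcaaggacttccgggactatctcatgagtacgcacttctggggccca
The longest run without a difference is 289 bases. How the counting treated reads that align equally well to both copies is not stated in any source at hand, so the split of reads between the pair is uncertain.

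Pdk4 and Pdp1 showed the largest differences between genotypes among the 10 genes, and both were higher in KO tumours. Pdk4 differed 3.67-fold and Pdp1 2.92-fold. The 2 genes act in opposite directions on the complex, since one encodes a kinase and the other a phosphatase. Pdhb and Mpc1 were lower in KO tumours and Dlat was higher. None of these differences passed an adjusted p of 0.05 in edgeR's quasi-likelihood test over all 14666 genes, where 0 genes were called (0.0%). At an unadjusted p under 0.05, 3 of 10 were higher in KO tumours (Pdk4, Pdp1 and Dlat), against 7.25% of all tested genes, and 2 of 10 were lower (Pdhb and Mpc1), against 7.44%. At least 6 of 7 KO libraries lay above every WT library for Pdk4 and Pdp1, which held for 2.5% of tested genes. The reverse held for Mpc1 and for 3.07% of tested genes. The endothelial and macrophage marker sums also lay below every WT library in 6 of 7 KO libraries, and their part in the differences was not tested. With each library left out in turn, including KO replicate 3, the log2 difference of Pdk4 stayed at 1.54 to 2.42, that of Pdp1 at 1.24 to 1.70 and that of Dlat at 0.37 to 0.59. That of Pdhb stayed at -0.72 to -0.42 and that of Mpc1 at -0.55 to -0.36, and none of the 10 was called by edgeR in any of these fits.

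**Figure D1:**
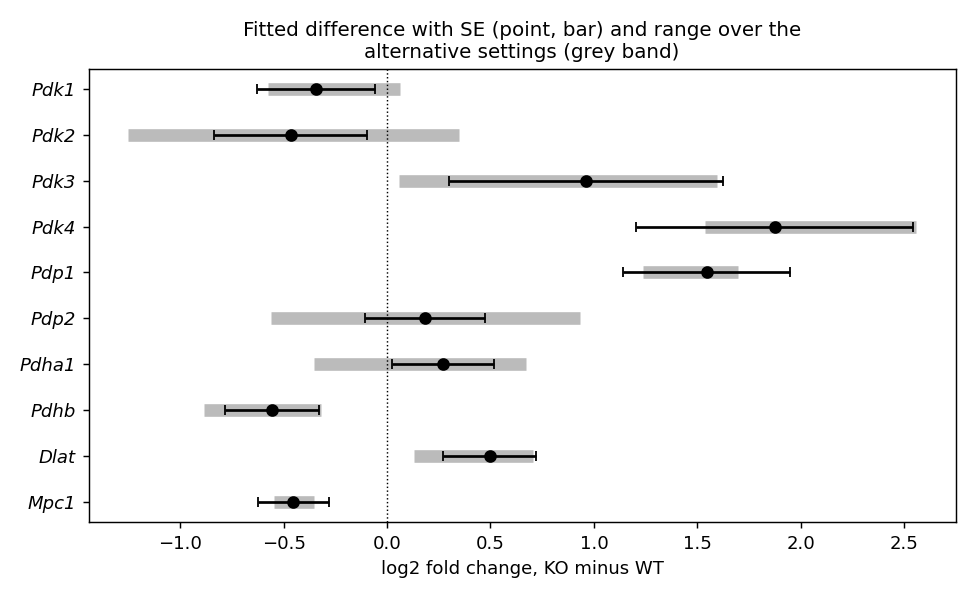
Log2 fold change of KO over WT for the 10 genes from edgeR's quasi-likelihood fit over 7 KO and 5 WT libraries (points), with bars of 1 SE, and grey bands for the range over the other tools, scalings, filters, covariates and subsets of libraries. The points run from -0.56 for Pdhb to 1.87 for Pdk4, and the bands of Pdk1, Pdk2, Pdp2 and Pdha1 cross 0.

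DESeq2 and limma-voom, run on the same counts, made calls among the 10 genes. DESeq2 called Pdp1 alone (adjusted p = 0.0109), against 3.33% of all tested genes. Limma-voom with sample weights called Pdk4 (adjusted p = 0.0124), Pdp1 (adjusted p = 0.0296) and Dlat (adjusted p = 0.0493), all higher in KO tumours, against 14.6% of all tested genes in either direction. That model gives each library a weight of its own.

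Pdk4 (chr6:5483351-5496309, minus strand) encodes the kinase known to be induced in fasting. It was at 9.86 to 190 CPM in KO libraries, with a median of 75.1. In WT libraries it was at 33.6, 13.7, 5.34, 52.0 and 10.03 CPM. Of the KO libraries, 6 of 7, at 55.6 CPM or more, lay above the highest WT library, and KO replicate 5 lay below all but 1 WT library. On the log2 scale the groups differed by 1.87 ± 0.67 (SE), with a 95% interval of 0.56 to 3.19 (adjusted p = 0.251, edgeR). Values spanned a 19.2-fold range in KO libraries and a 9.75-fold range in WT libraries, the widest WT range among the 10 genes. The difference was 1.71 within the shallower libraries and 2.42 within the deeper ones. It was 1.92 without the 3 KO libraries high in neutrophil markers and 1.61 with Xist class as a covariate.

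**Figure D2:**
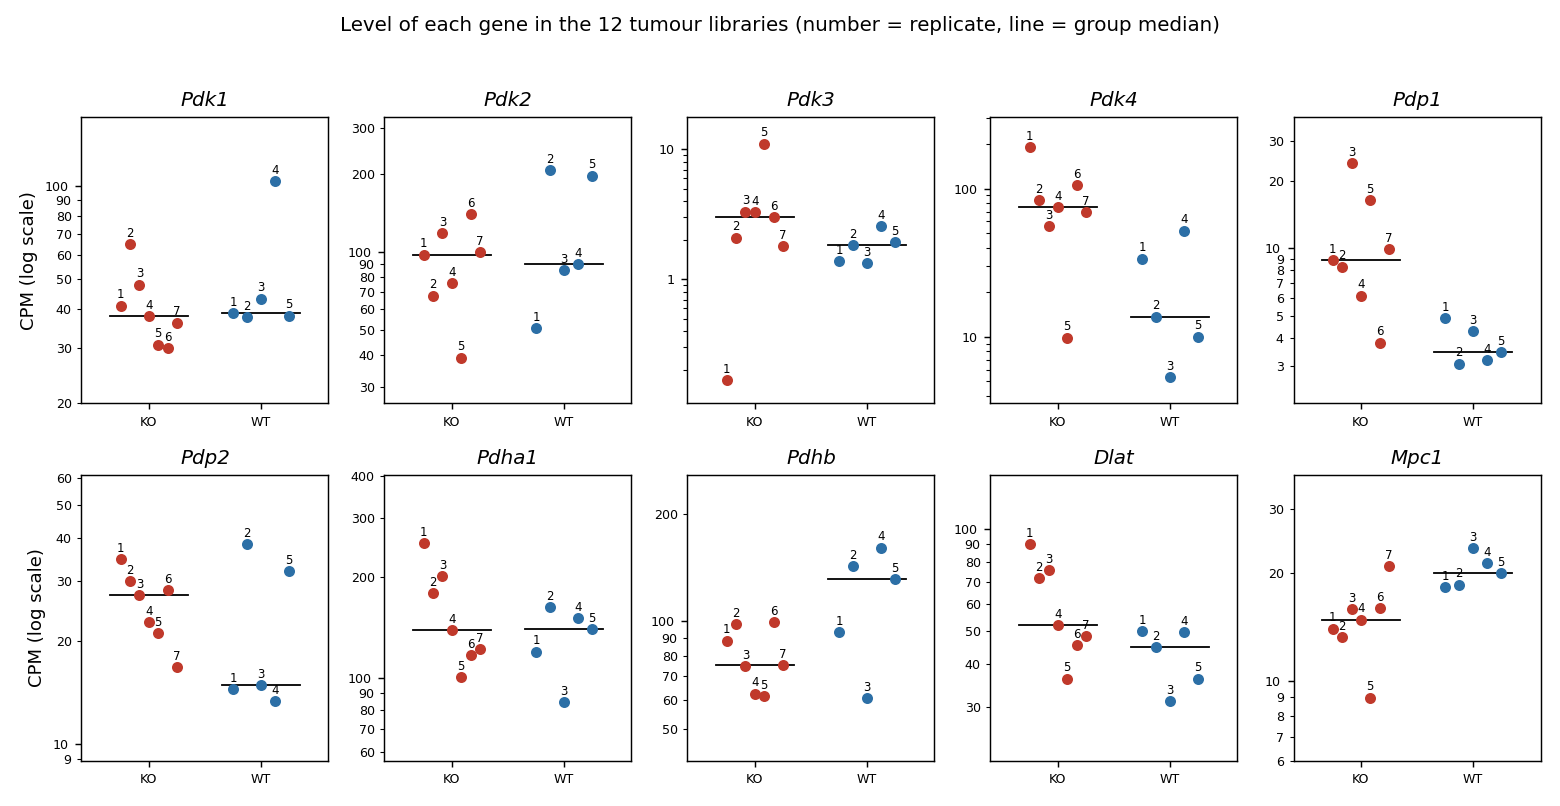
CPM on a log axis of each of the 10 genes, 1 point per library with its replicate number, KO libraries left and WT libraries right, and a line at each group's median. For Pdk4, 6 of 7 KO libraries lie above the highest WT library at 52.0 CPM, and for Pdk1, WT replicate 4 stands apart at 104 CPM.

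Pdk2 (chr11:95026258-95041354, minus strand), the common kinase of liver, was at 39.1 to 139 CPM in KO libraries, with a median of 97.5. The WT libraries had 50.9, 206, 85.1, 89.4 and 196 CPM. The groups overlapped, and both WT libraries near 200 CPM belong to the deeper class. The difference was -0.47 ± 0.37 on the log2 scale (adjusted p = 0.568, edgeR). It had opposite signs in the 2 depth classes, 0.35 within the shallower libraries and -1.25 within the deeper ones. The difference between classes was not past the threshold (unadjusted p = 0.0194, adjusted p = 0.514, edgeR interaction term over all genes).

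Pdk1 (chr2:71873224-71903858, plus strand), a known target of hypoxia-inducible factor, was at 30.0 to 64.9 CPM in KO libraries, with a median of 38.0. Across WT libraries the values were 38.8, 37.9, 43.4, 104 and 38.2 CPM. WT replicate 4 was 2.39 times as high as the next WT library, and the other 4 WT libraries lay inside the KO range. The difference was -0.34 ± 0.28 on the log2 scale (adjusted p = 0.583, edgeR), and 0.06 without WT replicate 4 (adjusted p = 0.906).

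WT replicate 4 was also the highest of the WT libraries for all 11 tested genes of a list of hypoxia targets. It was the highest of all 12 libraries for 9 of them. How often it was the highest over all tested genes was not counted, so these counts may not be particular to hypoxia targets. Vegfa, the endothelial growth factor, was at 303 CPM there and at 49.2 to 119 CPM in the other 4 WT libraries. Slc2a1, the glucose transporter GLUT1, was at 84.4 CPM there and at 23.7 to 45.8 CPM in the others. Adm, which encodes adrenomedullin and was picked out after its values were seen, was at 90.4 CPM there and at 2.67 to 4.35 CPM in the others. Pdk1 moved with these genes in this library, and their part in its level was not tested. WT replicate 4 was also the only WT library with Xist above 10 CPM, at 124 CPM. It was the lowest of the WT libraries in Pck1, at 1063 CPM. The part of these traits in the Pdk1 level was not tested either. Over both genotypes 0 of 11 hypoxia genes were called, and 1 was lower at an unadjusted p under 0.05, against 7.44% of tested genes. Their median log2 difference was -0.24, against 0.03 over all tested genes.

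The 250 bases before the first listed of 2 annotated starts of Pdk1 are shown because hypoxia-inducible factor recognises a short core, ACGTG or GCGTG. They are from RefSeq on GRCm38.p6 (chr2:71872974-71873223, plus strand), 5′ to 3′, with the core in capitals.
Pdk1 promoter: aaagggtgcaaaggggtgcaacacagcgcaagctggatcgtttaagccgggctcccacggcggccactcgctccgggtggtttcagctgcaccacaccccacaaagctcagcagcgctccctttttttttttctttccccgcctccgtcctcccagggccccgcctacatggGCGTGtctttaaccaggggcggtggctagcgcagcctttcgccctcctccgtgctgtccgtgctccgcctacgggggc
Both strands were searched and 1 match was found. A match was present in 38.6% of all 32851 promoters of this length, so it does not set Pdk1 apart. Of the 9 members with a promoter entry, Dlat held no match. The FOXO motif TGTTTAC (in 3.17% of promoters) and the nuclear receptor motif AGGTCA (in 14.0%) were not found in these windows of any of the 9. Pdk1, Pdk2 and Mpc1 have 2 promoter entries each, and only the first listed was searched.

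Pdk3 (chrX:93764607-93832201, minus strand), an X-linked kinase gene, was the lowest of the kinase genes by median CPM per kilobase. It was at 0.167 to 11.1 CPM in KO libraries, with a median of 3.02. The 5 WT libraries held 1.39, 1.85, 1.33, 2.58 and 1.94 CPM. Both extremes were KO libraries, replicate 1 at the low end and replicate 5 at the high end, a 66.1-fold range against 1.93-fold in WT libraries. KO replicate 5 is also the library with the highest bile duct marker sum, and the part of that in the Pdk3 level was not tested. The difference was 0.96 ± 0.66 on the log2 scale (adjusted p = 0.508, edgeR) and 0.33 without KO replicate 5.

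Dividing CPM by exon length made the kinase genes comparable with each other. On CPM per kilobase, Pdk2 was the leading kinase transcript in 6 of 7 KO libraries and 5 of 5 WT libraries. Its share of the kinase sum was 41.0% to 66.2% in KO libraries (mean 54.8% ± 9.4, SD, n = 7) and 52.4% to 88.7% in WT libraries (mean 72.7% ± 17.5, SD, n = 5). Pdk4 held 9.01% to 51.4% in KO libraries, with a median of 30.4%, and 2.92% to 23.9% in WT libraries, with a median of 3.77%. Pdk4 led in KO replicate 1 only. On CPM not divided by length, Pdk4 also led in KO replicate 2 (38.2%, against 31.1% for Pdk2) and Pdk1 led in WT replicate 4 (41.8%, against 36.1% for Pdk2). The kinase sum itself overlapped widely, at 31.4 to 106 CPM per kilobase in KO libraries (median 72.2) and 40.4 to 104 in WT libraries (median 76.0). The shares are a description of these libraries and were not tested.

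**Figure D3:**
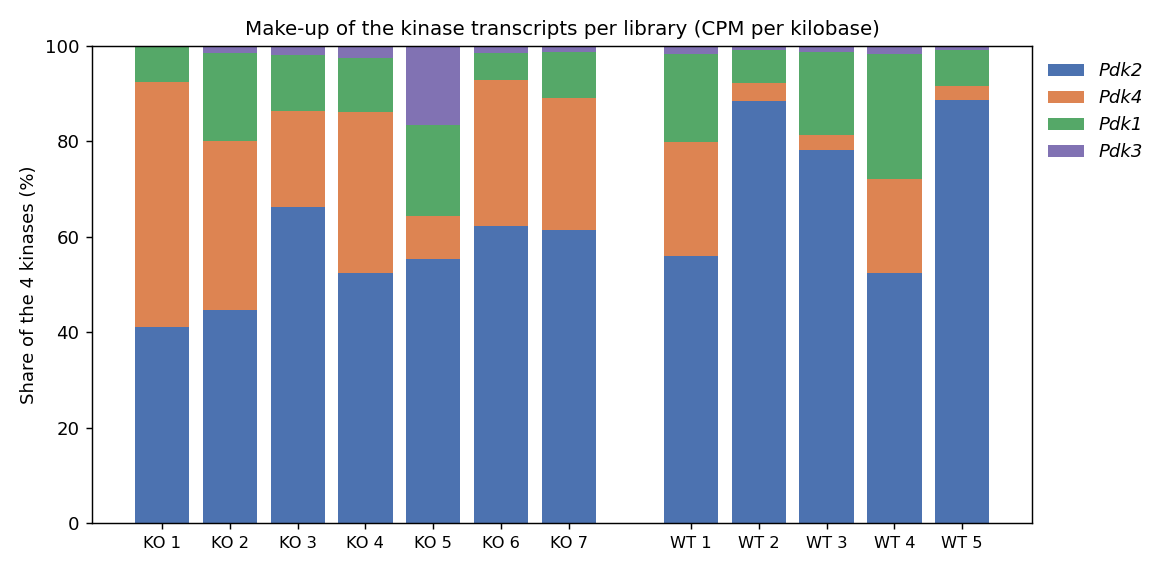
Stacked bars of the share, in percent, of the summed kinase CPM per kilobase held by Pdk2, Pdk4, Pdk1 and Pdk3 in each library, with KO libraries left and WT libraries right. The median Pdk4 share is 30.4% in KO libraries and 3.77% in WT libraries, and on this per-length scale Pdk2 leads in every library except KO replicate 1.

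Pdp1 (chr4:11958184-11966452), the calcium-stimulated phosphatase, was at 3.82 to 23.9 CPM in KO libraries, with a median of 8.87. In WT libraries it was at 4.91, 3.08, 4.29, 3.20 and 3.47 CPM. The WT libraries lay within a 1.59-fold range, and only KO replicate 6 fell inside it. The difference was 1.55 ± 0.40 on the log2 scale, with a 95% interval of 0.76 to 2.34 (adjusted p = 0.195, edgeR). It was 1.63 within the shallower libraries, 1.41 within the deeper ones and 1.36 with Xist class as a covariate. It was 1.5 without the 3 KO libraries high in neutrophil markers, although the highest KO value, in replicate 3, came from the library highest in those markers.

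Pdp2 (chr8:104591451-104599026), the other phosphatase, was at 16.7 to 34.7 CPM in KO libraries, with a median of 27.2. The WT libraries had 14.4, 38.3, 14.8, 13.4 and 32.1 CPM. The WT libraries fell into a high pair, both of the deeper class, and 3 low libraries, all of the shallower class. The difference was 0.18 ± 0.29 on the log2 scale (adjusted p = 0.790, edgeR), 0.93 within the shallower libraries and -0.56 within the deeper ones. That difference between classes, -1.49, was not past the threshold either (unadjusted p = 0.00131, adjusted p = 0.514, edgeR interaction term). An unadjusted p under 0.05 for this term was found for 9.55% of all tested genes. The summed phosphatase level was 5.15 to 10.1 CPM per kilobase in KO libraries (median 7.09) and 3.06 to 7.42 in WT libraries (median 3.63). The ratio of kinase sum to phosphatase sum was 4.29 to 17.2 in KO libraries (median 11.96) and 11.2 to 24.9 in WT libraries (median 14.0).

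Among the subunit genes, Pdhb (chr14:8165996-8173025), which encodes E1 beta, was at 61.7 to 99.4 CPM in KO libraries, with a median of 75.4. Across WT libraries the values were 93.0, 143, 60.9, 161 and 131 CPM. All 7 KO libraries lay below the WT median, but WT replicate 3 was the lowest of all 12. The difference was -0.56 ± 0.23 on the log2 scale (adjusted p = 0.293, edgeR). Of the 50-base words in Pdhb transcripts, 30.26% also occur in the processed pseudogene Gm6123. That pseudogene was at no more than 0.674 CPM in any library.

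Pdha1 (chrX:160122209-160138413), which encodes E1 alpha, the subunit that the kinases phosphorylate, was at 100.1 to 252 CPM in KO libraries, with a median of 139. The 5 WT libraries held 120, 162, 84.6, 150 and 139 CPM. The medians were alike and 3 KO libraries lay above all WT libraries. The difference was 0.27 ± 0.25 on the log2 scale (adjusted p = 0.617, edgeR), 0.67 within the shallower libraries, -0.35 within the deeper ones and 0.09 with Xist class as a covariate. The difference between classes was -1.02 (unadjusted p = 0.0315, adjusted p = 0.515, edgeR interaction term). Its exons overlap those of Map3k15 on the opposite strand over 425 bases, and Map3k15 was at no more than 2.93 CPM.

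Dlat (chr9:50634633-50659780) was at 36.3 to 89.97 CPM in KO libraries, with a median of 52.2. In WT libraries it was at 50.1, 45.1, 31.3, 49.8 and 36.3 CPM. Of the KO libraries, 4 of 7 lay above every WT library. The difference was 0.50 ± 0.23 on the log2 scale (adjusted p = 0.338, edgeR). It was 0.71 within the shallower libraries, 0.13 within the deeper ones and 0.32 with Xist class as a covariate.

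The balance between the subunit transcripts differed from library to library. On CPM per kilobase, the ratio of Pdha1 to Pdhb was 0.623 to 1.52 in KO libraries (median 0.964) and 0.497 to 0.738 in WT libraries (median 0.603). In 6 of 7 KO libraries it was above all WT libraries. The ratio of Dlat to Pdhb was 0.172 to 0.382 in KO libraries (median 0.273) and 0.104 to 0.202 in WT libraries (median 0.118). These ratios were not tested.

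**Figure D4:**
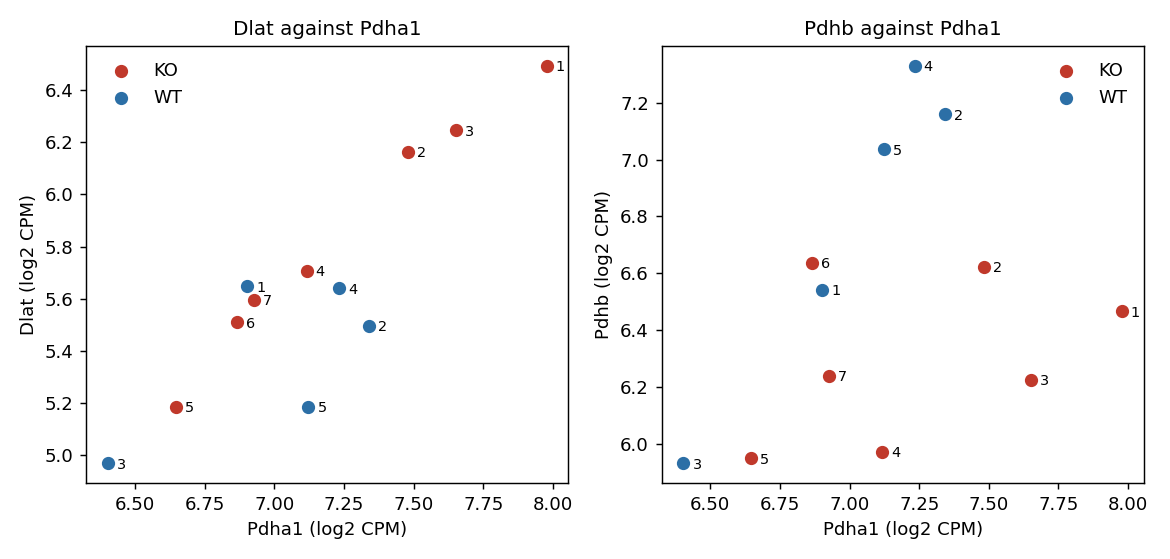
Log2 CPM of Dlat (left) and of Pdhb (right) against log2 CPM of Pdha1, 1 point per library with its replicate number, KO libraries in red and WT libraries in blue. Dlat and Pdha1 lie along a line (Pearson r = 0.89, n = 12), and the scatter is wider for Pdhb (r = 0.34).

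The levels of 6 pairs of genes were compared across libraries on log2 CPM. Pdha1 and Dlat varied together over the 12 libraries (Pearson r = 0.89, permutation p = 0.0001, adjusted p = 0.0006; Spearman rho = 0.748, permutation p = 0.0067, adjusted p = 0.0201). Without KO replicate 1 and WT replicate 3, the libraries farthest from the median, r was 0.76 (permutation p = 0.0108). Within the 7 KO libraries r was 0.99 and the rank order was identical (exact permutation p = 0.000198 for r, the smallest the design can give for it, adjusted p = 0.00119). Within the 7 shallower libraries r was 0.98 (exact permutation p = 0.000794, adjusted p = 0.00476), and rho was 0.89 (exact permutation p = 0.0123, adjusted p = 0.0714). The deeper class held 5 libraries and no correlation was computed in it. Pooled over genotypes, Pdhb had r = 0.34 against Pdha1 (permutation p = 0.274, adjusted p = 0.411, rho = 0.40, permutation p = 0.203) and r = 0.05 against Dlat (permutation p = 0.878, adjusted p = 0.931, rho = 0.07, permutation p = 0.836). Within the KO libraries r was 0.38 against Pdha1 (exact permutation p = 0.384, adjusted p = 0.461) and 0.45 against Dlat (exact permutation p = 0.302, adjusted p = 0.453). Among WT libraries, Pdha1 and Pdhb were both lowest in replicate 3, next lowest in replicate 1 and higher in the other 3.

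Pdk4 and Pck1 had r = -0.63 over all libraries (permutation p = 0.0327, adjusted p = 0.0654; rho = -0.54, permutation p = 0.0763). That relation did not hold within the KO libraries, where r was 0.19 (exact permutation p = 0.6998). Within the shallower libraries, 4 KO and 3 WT, r was -0.87 (exact permutation p = 0.00952, adjusted p = 0.0286). There rho was -0.86 (exact permutation p = 0.0238, adjusted p = 0.0714). Both of these sets pool the genotypes, and Pck1 was lower and Pdk4 higher in KO libraries. The permutations did not hold genotype fixed, so the pooled r values cannot be told apart from the difference between genotypes. Pdk2 and Pdk4 had r = -0.03 (permutation p = 0.931, rho = 0.10, permutation p = 0.769) over all libraries. Correlations were computed over 6 or more libraries only, so none is given within the 5 WT libraries. There, the 2 libraries lowest in Pck1, WT replicates 4 and 1 at 1063 and 1696 CPM, were the 2 highest in Pdk4.

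Mpc1, the carrier subunit, was at 8.996 to 20.8 CPM in KO libraries, with a median of 14.8. The WT libraries had 18.2, 18.5, 23.4, 21.2 and 19.9 CPM. Of the KO libraries, 6 of 7 lay below every WT library, and KO replicate 7 lay among them. The difference was -0.45 ± 0.17 on the log2 scale (adjusted p = 0.273, edgeR), -0.39 within the shallower libraries and -0.54 within the deeper ones. Mpc1-ps, the start of whose sequence is shown above, was at 38.8 to 84.1 CPM in KO libraries and 68.6 to 98.7 CPM in WT libraries, and differed by -0.46 ± 0.17 (adjusted p = 0.271, edgeR). Of the reads on the pair, Mpc1 held 17.5% to 24.4% in KO libraries (mean 19.9% ± 2.32, SD, n = 7) and 17.1% to 24.4% in WT libraries (mean 19.997% ± 2.91, SD, n = 5). With the counts of the pair summed, the level was 47.8 to 105 CPM in KO libraries and 86.9 to 120 CPM in WT libraries, and the difference was -0.46 (adjusted p = 0.259, edgeR).

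**Figure D5:**
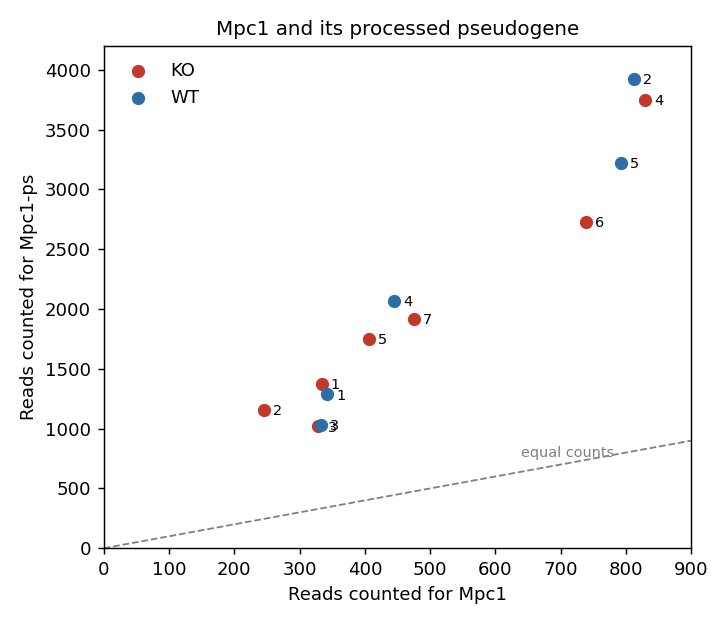
Reads counted for Mpc1-ps against reads counted for Mpc1, 1 point per library with its replicate number, KO libraries in red and WT libraries in blue, and a dashed line at equal counts. The pseudogene row holds 3.10 to 4.71 times the Mpc1 reads in KO libraries and 3.10 to 4.83 times in WT libraries, so every point lies above the line.

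The 4 tested partners of these genes all had negative differences in the same test, and 0 were called. At an unadjusted p under 0.05 (edgeR), 1 of 4 was lower (Dld), against 7.44% of all tested genes. Dld, the E3 dehydrogenase shared with related complexes, differed by -0.37 ± 0.17 and was below the WT median in 7 of 7 KO libraries. Pdhx, the E3 binding protein, differed by -0.38 ± 0.32, and Mpc2, the second carrier subunit, by -0.28 ± 0.20. Pdpr, the regulatory subunit of the phosphatase, differed by -0.12 ± 0.27. Pdha2, the testis form of E1 alpha, had 0 counts in all 12 libraries, which allows up to 3 counts, or 0.0642 to 0.172 CPM by library, counting error only.

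Genes around the complex were taken from fixed lists, and 0 were called in any of them. Over all tested genes, 7.44% were lower and 7.25% higher at an unadjusted p under 0.05 (edgeR), with a median of 0.03. Of 10 tested genes for the sources and other fates of pyruvate, 0 passed an unadjusted p of 0.05, with a median log2 difference of -0.18. Ldha, the lactate dehydrogenase of glycolytic tissue, differed by 0.40 ± 0.25 and was above the WT median in 7 of 7 KO libraries. Pcx, pyruvate carboxylase, differed by -0.16 ± 0.21, Pklr, the liver pyruvate kinase, by -0.58 ± 0.73, and Pkm, the other pyruvate kinase gene, by 0.48 ± 0.50. Of 12 citric acid cycle genes, 3 were lower at an unadjusted p under 0.05 and 0 were higher, with a median of -0.45, although Cs, citrate synthase, differed by 0.46 ± 0.35. Of 8 genes of the related dehydrogenase complexes, 1 was lower and 0 were higher, with a median of -0.53. Among them, Ogdh, the E1 of the 2-oxoglutarate complex, differed by -0.66 ± 0.34, and Ppm1k, a phosphatase of the branched-chain complex, by -0.80 ± 0.38. Of 11 genes for cofactor supply, 3 were lower and 0 were higher, with a median of -0.23.

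The fasting and peroxisome proliferator-activated receptor alpha list gave 0 of 14 genes at an unadjusted p under 0.05, with a median of 0.19. Cpt1a, the gate of mitochondrial fat oxidation, differed by 0.16 ± 0.23. Ppara, the receptor gene itself, differed by 0.36 ± 0.19, Foxo1, a transcription factor restrained by insulin, by -0.34 ± 0.16 and the coactivator gene Ppargc1a by -0.10 ± 0.61. Angptl4 was at no more than 0.893 CPM and was not tested. KO replicate 6 was the highest of all 12 libraries for 7 of the 14 genes. Pdk4 was at 106 CPM there, second to KO replicate 1 at 190 CPM, which was the highest for 2 of the 14. The share over all tested genes was not counted, and a link with the Pdk4 level was not tested.

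Over the 12 libraries, the tested genes with the highest Pearson r to Pdk4 were Adam22 (0.92), Fosl1 (0.91), Ten1 (0.91), Casp8 (0.89) and Pcp4l1 (0.88). Those with the lowest were 2610507I01Rik (-0.89), Gzf1 (-0.88), Il13ra1 (-0.88), Serpina1d (-0.87) and Serpina1c (-0.87). They were ranked out of 14666 genes, so values of this size are picked extremes and carry no test. Adam22 had 1 count in WT replicate 3 and 3 counts in KO replicate 5. Fosl1 had 1 to 3 counts in WT replicates 2, 3 and 5. The r of these 2 genes rests in part on such low counts.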

How the data were processed

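RNA was extracted with Trizol, per the labels' protocols. The authors deposited un-normalized whole-number read counts per gene. HISAT2 and mm10 are named in the submitters' processing notes. The counting program, annotation and strand setting were not given in the sources used here. Genotype labels set the groups, and replicates were numbered by accession order. KO replicate 7 is titled with KP but carries the genotype label Pck1-null.

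Genes were kept by filterByExpr (minimum count 10, minimum total 15), leaving 14666 genes that held 99.89% of counts. The test was edgeR 4.0.16 in R 4.3.3 (TMM, robust quasi-likelihood F-test, KO over WT, 7 and 5 libraries, no covariate) with Benjamini-Hochberg adjustment over all 14666 at 0.05. Biological variation between libraries had a common coefficient of 0.4925. SEs are log2 fold changes divided by the root of F, and correlations used log2 CPM with prior count 2. The 95% intervals take these SEs with the normal quantile, so they are narrower than intervals from the quasi-likelihood F-test would be. In simulated data for this comparison (12117 genes), a 4-fold change was called for 45 of 50 raised and 37 of 50 lowered genes. A 2-fold change was called for 16 and 13 of 50, with 5 calls among 11917 unchanged genes. Counts were drawn gene by gene, for the better expressed genes only, so traits shared by many genes of a library were left out. These rates therefore need not hold here, where Pck1 at -3.28 was not called (adjusted p = 0.170, edgeR). Libraries of the same group all differed by more than counting noise (smallest chi-square per degree of freedom 76.75). Alternatives were DESeq2 1.42.0, limma-voom (limma 3.58.1), other scalings, filters and covariates, and subsets of libraries. Summing Mpc1 with its pseudogene was added after the data were seen.

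Positions and exon lengths are from GENCODE M21 (GRCm38, the assembly of mm10), and the promoter from RefSeq. Each of 6 correlations used 100000 permutations, exact within KO and within the shallower libraries, the last added after the data were seen. One of the 6 pairs is not reported here, and p-values are adjusted over all 6. All members, their partners, set genes of each list, and the 5 genes highest and 5 lowest in r with Pdk4 are named by rule. The members and the 23 lists were chosen with earlier results of these data known.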

Additional observations from a re-analysis of the deposited data

Results flagged for a closer look

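In 70 groups of log2 CPM values over 35 genes, 3 had a library standing apart by Dixon's criterion, where chance gives about 1 in 20. The criterion was applied on the log2 scale, and the levels below are in CPM. Pdk4 in KO libraries was lowest in KO replicate 5, at 9.86 CPM, and the next KO library was at 55.6 CPM. Pdk1 in WT libraries was highest in WT replicate 4, at 104 CPM, and the next WT library was at 43.4 CPM. Ogdh in KO libraries was highest in KO replicate 6, at 396 CPM, and the next KO library was at 218 CPM.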

How the results depend on the processing

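Of 251 values of the 10 genes under the alternatives, 242 kept both their sign and their side of the threshold, 4 became calls (named in the results, under DESeq2 or limma-voom) and 5 turned sign. The 5 were Pdk1 without WT replicate 4 (0.062), Pdk2 within the shallower libraries (0.35), Pdp2 under limma-voom (-0.23) and within the deeper libraries (-0.56), and Pdha1 within the deeper libraries (-0.35); the cause was not tested. Members called numbered 1 with DESeq2, 3 with limma-voom and 0 to 0 when each library was left out in turn, which moved Pdk1 over -0.49 to 0.062. Genes called numbered 489 with DESeq2, 2138 with limma-voom, 1 each with upper-quartile scaling, no filter, a CPM filter and the deeper libraries only, 2 with title number range and 3 with depth class as covariate. Without KO replicates 3, 4 and 6 there were 6, and leaving out each library gave 0 to 71, the highest without KO replicate 6. The mean kinase shares were 20.8% for Pdk1 in KO, 27.0% for Pdk1 in WT and 42.0% for Pdk2 in KO on CPM not divided by length, against 11.9%, 15.3% and 54.8% per kilobase. No paired analysis was possible because replicates were numbered by accession order and the labels pair no libraries. Low counts limit Pdk3, at 0.167 CPM in KO replicate 1.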
